A study of Homo sapiens with 6 samples.

Results

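The 2 arrays with replicate number 1, 1 of PRMT5-lowered cells and 1 of control cells, were compared with the 4 arrays of numbers 2 and 3, out of 6 arrays in all. They were chosen by the number at the end of each sample title, and no measured value entered the choice. All samples are NCI-H929, a human line established from multiple myeloma, a cancer of plasma cells. PRMT5_down, with 3 arrays, stands for cells transduced with a PRMT5-lowering lentivirus, whose agent the titles call a sponge and the treatment protocol a short hairpin RNA in pLKO.1. Control, also with 3 arrays, stands for cells with a control lentivirus. Puromycin selection and collection at a shared time are stated for the cells, and no clone, dose of virus or target sequence is given. The labels do not say what samples of the same number share, so culture, RNA extraction, labelling and hybridisation cannot be told apart as what separates number 1. Whether replicates are separate cultures is not stated either, so p-values reflect the spread between arrays alone, and that spread may be technical. The number of arrays limits the precision throughout.

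As background, cultured cells carry transcript programmes that move with the conditions of the culture. Immediate early genes, many of them transcription factors, are transcribed briefly after a signal, and heat shock genes encode chaperones that HSF1 induces when proteins misfold. ATF4 and NRF2 drive genes of amino acid supply and of defence against oxidation, and GATA1 and KLF1 drive the heme and globin genes of red cell precursors.

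The values are log2 signals, so a difference of 1 is a doubling. Array medians lay between 5.29 and 5.32. A gene is said to be above background on an array when it exceeds the 95th percentile of 333 olfactory receptor genes there, which fell between 4.89 and 5.01. From 59% to 60.2% of genes passed that level on an array. The defining markers did not all match the label. Of 10 plasma cell markers, 6 (IRF4, CD38, TNFRSF17, MZB1, POU2AF1 and SLAMF7) were above background on no array. PRDM1, SDC1 and XBP1 were above it on all 6, XBP1 at 10.02 to 10.88. All 5 erythroid markers measured were above it on all 6 arrays. So were 4 of 5 epithelial and fibroblast, 3 of 5 megakaryocyte, 2 of 3 B cell, 2 of 3 T and NK cell, 2 of 4 monocyte and 1 of 5 eosinophil, basophil and mast cell markers. The mean of those erythroid markers was 8.79 and 9.27 in the arrays of number 1 and 8.63 to 9.14 in the others. The mean of the plasma cell markers was 4.43 and 4.54 in number 1 and 4.43 to 4.59 in the others.

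Number 1 stood apart from numbers 2 and 3 in many genes, in both directions. Throughout, a difference is number 1 minus numbers 2 and 3, from limma with the treatment as a covariate, and a gene is called when its Benjamini-Hochberg adjusted p is under 0.05. Of 18132 genes, 588 were called (3.24%), 332 higher in number 1 (1.83%) and 256 lower (1.41%). Of the 10215 genes above background on all 6 arrays 537 were called, a larger share. The 3.24% set beside gene lists below includes dim genes, whereas many lists hold mainly genes above background. At an unadjusted p under 0.05 there were 3733 genes, 1830 higher and 1903 lower. Chance gives 906.6 if all arrays are independent. Arrays sharing a number deviated together, so the excess over that count does not measure how unusual number 1 is. The median difference was 0.81 among genes called higher, -0.77 among genes called lower and -0.035 over all genes. A difference of at least 2-fold was reached by 171 genes higher and 114 lower, of which limma called 90 (0.496%) and 48 (0.265%). Both number 1 arrays lay outside the range of the other 4 for 5812 genes (32.1%), 2525 above (13.9%) and 3287 below (18.1%). The same count gave 21.6% of genes for number 2 and 35.3% for number 3, so 32.1% is not particular to number 1. The smallest adjusted p was 0.0327 (limma), so the calls lie near the threshold. The calls depended on how the spread was modelled: with the number as a random replicate block limma called 0 genes (2712 at an unadjusted p under 0.05), with trend and robust variances 59, and with the number as a fixed factor of 3 levels 4598. It also called 0 when any array but control replicate 2 was left out, with 1449 to 3616 genes at an unadjusted p under 0.05 in those fits.

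Genes that stood far apart in 1 treatment group lay on the same side in the other, and the groups share no array. For each gene the number 1 array was set against the mean of numbers 2 and 3 within PRMT5_down and within control. In control, 147 genes were at least 2-fold higher in number 1, and 146 of them (99.3%) were also higher in PRMT5_down, with a median difference of 1.17 there. A further 91 genes were at least 2-fold lower in control, and 90 (98.9%) were lower in PRMT5_down, with a median of -1.19. When genes were chosen in PRMT5_down instead, 274 were at least 2-fold higher and 197 lower, of which 273 and 196 had the same sign in control, with medians of 0.89 and -0.89 there. Over all genes 71.4% had the same sign in both groups. Over all 18132 genes the differences had a Pearson r of 0.82 and a Spearman rho of 0.71, a description across genes that are not independent replicates and whose arrays were normalised together. The typical size was close, with a median absolute difference of 0.18 in PRMT5_down and 0.15 in control. No gene passed limma's test of whether the number 1 difference depends on the treatment (0 called, 0%; 122 at an unadjusted p under 0.05). That test has few degrees of freedom and does not show that the groups are alike.

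**Figure D1:**
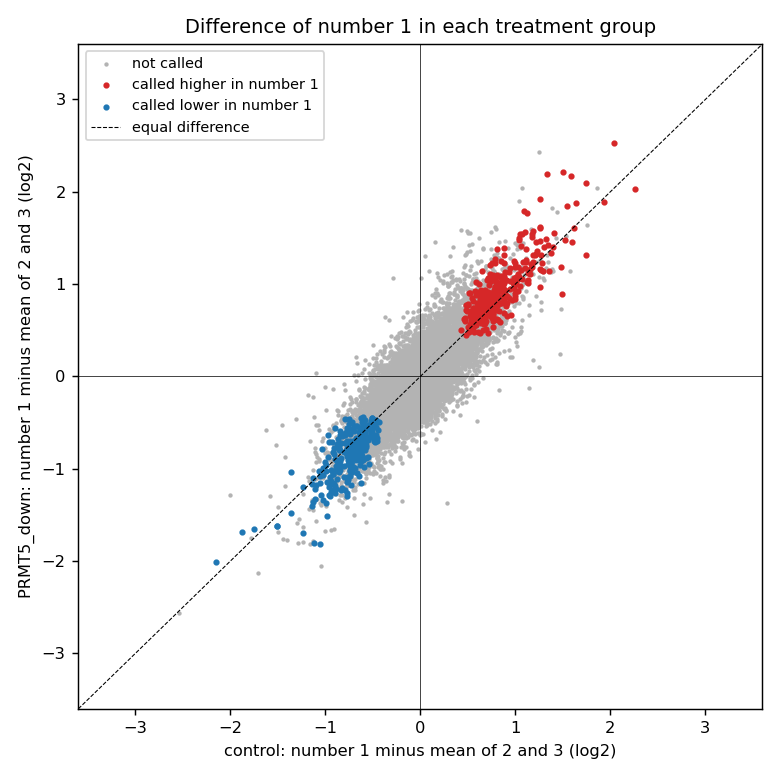
Each point is 1 of 18132 genes, with the log2 difference of number 1 from the mean of numbers 2 and 3 in control arrays on the x axis and in PRMT5_down arrays on the y axis. Genes called higher (red, 332) and lower (blue, 256) lie along the dashed line of equal difference, at the ends of a cloud with a Pearson r of 0.82.

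PRMT5, the targeted methyltransferase of symmetric arginine dimethylation, was at 8.63, 9.65 and 9.37 in PRMT5_down replicates 1, 2 and 3. It was at 9.93, 10.35 and 10.30 in control replicates 1, 2 and 3. Every PRMT5_down array was below every control array, and in both groups number 1 was the lowest. For number 1 the difference of -0.64 (SE 0.15) missed the threshold (limma adjusted p = 0.0827). The two-sided exact permutation of the numbers within groups gave p = 0.111 over 9 assignments, the smallest it allows. Of its partners, the substrate adaptor CLNS1A differed by 0.35 (SE 0.09), COPRS by -0.30 (SE 0.19), the adaptor RIOK1 by 0.17 (SE 0.19) and WDR77, the obligate partner of the enzyme, by -0.015 (SE 0.25). None of the 5 was called, and the signs for RIOK1 and WDR77 turned under other settings.

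The genes that led the higher side encode a mixture of transport, surface and signalling proteins. Leading genes of either side were picked among called genes whose number 1 arrays both lay outside the other 4. That their ranges do not overlap is therefore part of the choice. TF, the gene of the iron carrier transferrin, was at 9.59, 6.60 and 7.53 in PRMT5_down replicates 1, 2 and 3 and at 8.76, 6.49 and 6.95 in control. Both number 1 values lay more than a log2 unit above all others, and the difference was 2.28 (SE 0.30, limma adjusted p = 0.0327). EREG, the gene of the EGF receptor ligand epiregulin, was at 8.26, 6.34 and 6.49 in PRMT5_down and at 7.97, 6.43 and 6.43 in control. The 4 arrays of numbers 2 and 3 were close to each other for this gene, and number 1 was higher by 1.69 (SE 0.11, limma adjusted p = 0.0327). CD36, a scavenger receptor for fatty acids, was at 9.86, 8.15 and 7.80 in PRMT5_down and at 9.06, 7.60 and 6.66 in control, a difference of 1.91 (SE 0.27, limma adjusted p = 0.0371). Number 1 was the highest in each treatment group and the ranges did not overlap.

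The membrane channel gene AQP10 was higher in number 1 by 1.86 (SE 0.29), and the lymphocyte membrane protein gene ITM2A by 1.53 (SE 0.19). ITM2A was at 10.36, 8.75 and 9.33 in PRMT5_down and at 10.22, 8.50 and 8.46 in control. For some leaders the other arrays gave no clear signal. ABCG2, a drug and urate exporter, was at 6.06 and 5.76 in number 1 and at 3.79 to 4.14 in the others, which were below background. KLRC3, a receptor gene of natural killer cells with near-identical neighbours, was at 6.15 and 6.01 against 3.67 to 4.38, and the sodium channel gene SCN4A at 6.24 and 5.60 against 3.95 to 4.69. Their differences of 1.92, 2.14 and 1.59 therefore rest on number 1 arrays alone being above background. HMGN5, a nucleosome binding protein gene (1.53), RDM1, a gene of an RNA and DNA binding protein (1.5), and LRRC69 (1.76) complete the 12 that led this side. RDM1 had the smallest SE of them, 0.09, with number 1 at 7.44 and 7.37 and the others at 5.82 to 6.05.

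On the lower side the leaders, picked by the same rule, again came from many processes. SPRR2D, an epithelial envelope protein gene of a family of close copies, was at 5.02, 6.90 and 7.16 in PRMT5_down and at 5.58, 7.14 and 8.32 in control. It had the largest difference of the genes that led this side, -2.08 (SE 0.33, limma adjusted p = 0.0426). CHCHD6, a gene for the complex that shapes mitochondrial cristae, was at 8.46, 10.18 and 10.11 in PRMT5_down and at 8.58, 9.98 and 10.94 in control, a difference of -1.78 (SE 0.27, limma adjusted p = 0.0396). Both number 1 arrays were again below all others. MLKL, the executor of necroptosis, was at 4.69 and 4.75 in number 1, under background there, and at 5.69 to 6.26 in the other 4 arrays, a difference of -1.27 (SE 0.17). CES2, a carboxylesterase gene, differed by -1.25 (SE 0.11), and LGALS3BP, a secreted galectin ligand gene, by -1.56 (SE 0.16). The trypsinogen gene PRSS3, which has close copies, was at 3.96 and 4.13 in number 1, under background, and at 5.61 to 6.03 in the others, so its difference of -1.70 depends on a signal that was not clear. The inositol trisphosphate kinase gene ITPKA differed by -1.56, the depalmitoylase gene ABHD17A by -1.47, SURF2 by -1.46 and the ribosome biogenesis gene NOP9 by -1.42. The splicing factor gene SRSF2 and the chaperone gene HSPA1B, the other two of these 12, are described with their families.

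**Figure D2:**
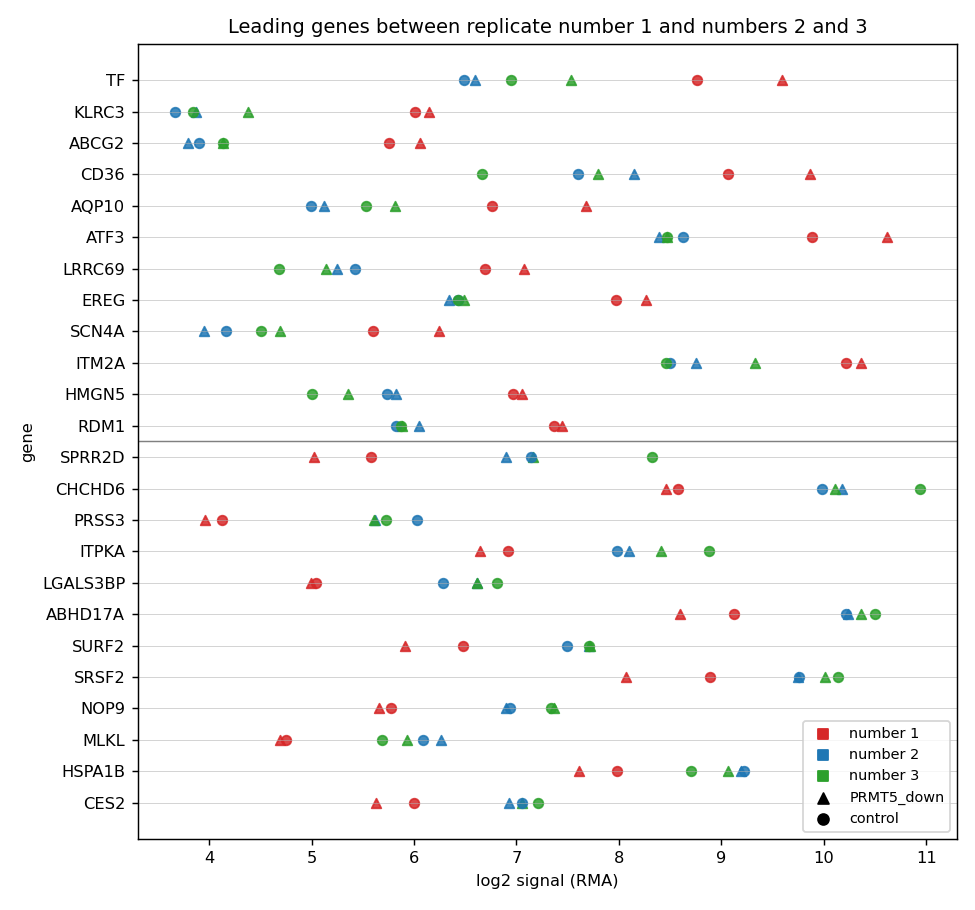
Log2 signal of the 12 leading genes of each direction on all 6 arrays, number 1 in red, number 2 in blue and number 3 in green, with triangles for PRMT5_down and circles for control. By the rule that chose these genes, both red symbols lie outside the range of the other 4 in every row, for example TF at 9.59 and 8.76 against 6.49 to 7.53.

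Other probe sets of the called genes mostly moved the same way. Of 1030 further probe sets of the 588 genes, 981 had the same sign as the one used, and among the 716 above background on all 6 arrays 710 did. The median ratio of their difference to that of the gene was 0.94. These probe sets read the same RNA on the same arrays and are no replicates. Exceptions existed for named genes. A TF probe set above background on 2 arrays differed by 0.01, and an SRSF2 probe set above background on all 6 by 0.21, opposite to the gene. Among other probe sets above background on all 6, those of DUSP1 at 0.16, SMAD6 at -0.15, TAPBP at -0.42 and AQP10 at 0.92 were under 0.5 of the value given for the gene.

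Among immediate early genes, 3 of 36 were called, all higher in number 1 (8.33%, against 3.24% of all genes). ATF3, a stress-induced transcription factor of the ATF and CREB family, was at 10.62, 8.39 and 8.47 in PRMT5_down and at 9.88, 8.63 and 8.47 in control, a difference of 1.76 (SE 0.21, limma adjusted p = 0.0327). JUN, a subunit of the AP-1 factor, was at 8.99, 7.95 and 7.74 in PRMT5_down and at 8.46, 7.88 and 7.75 in control, a difference of 0.90 (SE 0.15, limma adjusted p = 0.0454). DUSP1, the phosphatase that switches off MAP kinases, was at 8.07, 6.92 and 7.24 in PRMT5_down and at 7.71, 6.86 and 6.96 in control, a difference of 0.90 (SE 0.12, limma adjusted p = 0.0344), while another probe set above background on all arrays differed by 0.16. For all 3 genes number 1 was highest in both groups, and for ATF3 and JUN the other 4 arrays were within 0.3 of each other. The list as a whole did not shift: 15 members were higher and 21 lower, with a median of -0.05, beside -0.035 over all genes. SPRED1, a brake on the RAS pathway, was next by p, at 0.52 (SE 0.14), and did not pass.

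The promoters of these 3 genes are shown because each holds a match to TGACNTCA (TGANGTCA on the other strand), a pattern that ATF and JUN proteins are known to bind, printed in capitals. All windows end at the base before the RefSeq start site (GRCh38.p14), and lie at chr1:212565157-212565406 on the plus strand for ATF3, chr1:58784048-58784297 on the minus strand for JUN and chr5:172771196-172771445 on the minus strand for DUSP1.
ATF3: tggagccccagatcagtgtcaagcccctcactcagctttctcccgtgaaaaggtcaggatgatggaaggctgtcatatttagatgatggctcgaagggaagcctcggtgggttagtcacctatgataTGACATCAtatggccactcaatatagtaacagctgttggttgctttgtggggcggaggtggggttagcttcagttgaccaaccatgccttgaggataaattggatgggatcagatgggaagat
JUN: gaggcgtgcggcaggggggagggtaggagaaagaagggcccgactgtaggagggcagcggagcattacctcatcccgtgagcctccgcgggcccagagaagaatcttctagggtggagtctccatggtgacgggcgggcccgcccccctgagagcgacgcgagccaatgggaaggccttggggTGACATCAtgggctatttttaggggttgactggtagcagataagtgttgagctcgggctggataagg
DUSP1: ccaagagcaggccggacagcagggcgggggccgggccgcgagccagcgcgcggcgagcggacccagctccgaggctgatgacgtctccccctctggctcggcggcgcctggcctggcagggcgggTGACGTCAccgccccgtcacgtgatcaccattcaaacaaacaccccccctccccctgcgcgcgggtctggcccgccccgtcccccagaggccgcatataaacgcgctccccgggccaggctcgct
The match begins 123 bases before the start site in ATF3, 67 in JUN and 125 in DUSP1. The search covered both strands of 300 bases, 250 before and 50 after the start. The pattern was in 7.09% of the 14425 promoters matched to tested genes, in 9.28% of those of genes called higher and in 6.22% of those called lower. Among 25 immediate early genes with a promoter in the table, 6 held it, 4 of these higher in number 1 and 2 lower, with a median difference of 0.87 against -0.05 for the other 19. The pattern was chosen after the values of ATF3, JUN and DUSP1, 3 of those 6, were seen, and a match is a description of the letters only.

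Heat shock and chaperone genes lay mostly lower in number 1. The median of 23 genes was -0.40, with 17 lower and 6 higher, and 1 was called (4.35%, against 3.24% of all genes). That gene was HSPA1B, an inducible HSP70 whose signal may be shared with its near-identical copy HSPA1A. It was at 7.61, 9.19 and 9.06 in PRMT5_down and at 7.98, 9.22 and 8.70 in control, a difference of -1.25 (SE 0.20, limma adjusted p = 0.0426). HSPA8, the constitutive HSP70, was at 11.73, 12.99 and 12.77 in PRMT5_down and at 12.43, 13.13 and 12.91 in control, and its difference of -0.87 (SE 0.16) just missed (limma adjusted p = 0.0558). Number 1 was below all other arrays for both genes. The HSP70 cochaperone BAG3 at -0.41 (SE 0.08) and the HSP90 cochaperone FKBP4 at -0.65 (SE 0.14) did not pass either. Chosen after their values were seen, the small heat shock protein gene HSPB1 stood at -0.66 (SE 0.16), DNAJB1 at -0.68 (SE 0.18) and, opposite in sign, HSPA4L at 1.22 (SE 0.36), none of them called.

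The promoters of HSPA1B, HSPA8 and HSPB1 are shown for the letters GAANNTTC, an inverted pair of the units in the element that HSF1 is known to bind, which read the same on both strands and are in capitals. They come from RefSeq (GRCh38.p14), at chr6:31827488-31827737 on the plus strand, chr11:123062137-123062386 on the minus strand and chr7:76302423-76302672 on the plus strand.
HSPA1B: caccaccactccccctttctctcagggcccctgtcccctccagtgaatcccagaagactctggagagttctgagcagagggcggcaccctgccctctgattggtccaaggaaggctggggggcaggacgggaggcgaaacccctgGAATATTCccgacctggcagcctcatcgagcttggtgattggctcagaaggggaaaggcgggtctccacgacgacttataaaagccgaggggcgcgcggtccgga
HSPA8: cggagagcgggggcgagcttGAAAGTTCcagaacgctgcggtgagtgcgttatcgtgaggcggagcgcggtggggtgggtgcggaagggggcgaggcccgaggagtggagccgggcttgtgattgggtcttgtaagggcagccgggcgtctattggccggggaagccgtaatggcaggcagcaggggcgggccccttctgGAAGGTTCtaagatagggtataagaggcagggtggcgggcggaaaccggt
HSPB1: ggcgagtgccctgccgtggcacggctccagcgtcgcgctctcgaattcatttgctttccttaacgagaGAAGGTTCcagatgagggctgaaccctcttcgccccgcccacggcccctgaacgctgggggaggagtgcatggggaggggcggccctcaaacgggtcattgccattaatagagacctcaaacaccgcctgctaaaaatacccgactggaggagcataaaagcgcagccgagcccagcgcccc
HSPA1B has a match 105 bases before the start site, HSPB1 182 bases before, and HSPA8 has 2, at 230 and 50 bases before. The letters were in 5.41% of all 14425 promoters, in 6.19% of those of genes called higher and in 1.91% of those called lower. Of 20 heat shock genes with a listed promoter, 8 held them, 6 of these lower in number 1. The median difference was -0.71 with a match and -0.25 without. HSPA1B, HSPA8 and HSPB1 were among those 8, and HSPB1 was picked after its value was seen. The longer form searched, with a further unit, was in 0 of 291 promoters of genes called higher and 0 of 209 called lower. It was in 0.402% of all promoters. A match is a description of the letters only.

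Genes of the oxidative stress response that NRF2 controls were called in both directions. Of 24 measured, 4 were called higher and 1 lower (20.8%, against 3.24% of all genes), while the median was -0.08 and 14 were lower. The called genes that were higher were 3 aldo-keto reductases and malic enzyme. AKR1C3 was at 11.07, 9.87 and 9.89 in PRMT5_down and at 11.04, 9.78 and 9.33 in control, a difference of 1.34 (SE 0.15, limma adjusted p = 0.0327). AKR1C2 differed by 1.40 (SE 0.17) and AKR1C1 by 0.73 (SE 0.10), but these reductases are near-identical copies whose probes may share signal, so they are not independent. ME1, which supplies NADPH for fatty acid synthesis, was at 8.44, 7.03 and 7.0 in PRMT5_down and at 8.07, 7.02 and 6.43 in control, a difference of 1.39 (SE 0.17). NQO1, the quinone reductase often used as a readout of NRF2, was lower in number 1, at 9.54 and 9.51 against 10.09 to 10.17, a difference of -0.61 (SE 0.08, limma adjusted p = 0.0327). The called members thus lay on both sides.

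The ATF4 list, genes of amino acid synthesis and transport, leaned higher with little support from single genes. Its median was 0.16, with 29 of 41 genes higher and 12 lower, and 1 was called (2.44%, no more than the 3.24% of all genes). That 1 gene, the stress-induced chromatin protein gene NUPR1, was lower, at 7.09, 8.22 and 8.35 in PRMT5_down and 7.40, 8.35 and 8.93 in control, a difference of -1.22 (SE 0.17, limma adjusted p = 0.0364). CTH, which makes cysteine, was at 10.33 and 10.05 in number 1 and at 8.69 to 9.24 in the others. Its difference of 1.20 (SE 0.21) missed narrowly (limma adjusted p = 0.0502). The serine synthesis gene PSPH at 0.99 (SE 0.18) and the folate enzyme gene ALDH1L2 at 0.56 (SE 0.10) also missed. Chosen after their values were seen, the cystine transporter gene SLC7A11 stood at 1.22 (SE 0.23) and the transcription factor gene ATF5 at -1.55 (SE 0.30), neither called. In the ER stress list 0 of 30 genes were called by limma, with 3 higher and 4 lower at an unadjusted p under 0.05.

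Heme and globin genes of red cell precursors were higher in number 1 in the majority, although GATA1, the factor that drives them, was lower. The median of 36 genes was 0.37, with 27 higher and 9 lower, beside -0.035 over all genes. At an unadjusted p under 0.05, 18 were higher and 3 lower. limma called 4 higher and 1 lower (13.9%, against 3.24% of all genes). AHSP, the chaperone of alpha globin, was at 8.75, 7.04 and 6.92 in PRMT5_down and at 6.74, 5.85 and 5.39 in control, a difference of 1.45 (SE 0.20, limma adjusted p = 0.0349). Number 1 was the highest within each group, but the control array of number 1 was below the PRMT5_down arrays of numbers 2 and 3, so the ranges overlapped. PPOX, the enzyme before the last step of heme synthesis, was at 10.09, 9.22 and 9.13 in PRMT5_down and at 9.83, 9.20 and 9.14 in control, a difference of 0.79 (SE 0.10, limma adjusted p = 0.0327). HBQ1, the theta globin gene, differed by 0.71 (SE 0.11), and the carbonic anhydrase gene CA2 by 0.99 (SE 0.17), the latter above background on no array. GATA1 was at 9.81, 10.48 and 10.48 in PRMT5_down and at 9.67, 10.28 and 10.41 in control, a difference of -0.67 (SE 0.08, limma adjusted p = 0.0327).

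Other erythroid genes, chosen after their values were seen, had the same sign without being called. The embryonic globin gene HBZ was at 12.56, 11.47 and 11.09 in PRMT5_down and at 11.87, 11.24 and 10.27 in control, a difference of 1.20 (SE 0.29). The carbonic anhydrase gene CA1 differed by 1.04 (SE 0.18), the ammonium channel gene RHAG by 0.66 (SE 0.13) and the spectrin gene SPTB by 0.43 (SE 0.08). ALAS2, the rate-limiting enzyme of heme synthesis in red cells, did not follow, at -0.08 (SE 0.12). The factor gene KLF1 at -0.245 and the heme synthesis gene ALAS1 at -0.60, also chosen after their values were seen, were lower and not called. Probe sets shared by HBG1 and HBG2 differed by 0.11 to 0.30 and the set shared by HBA1 and HBA2 by 0.44, none called among 4305 probe sets with several symbols or none. In each of these sets number 3 was the lowest in both groups. An HBG set was at 12.40, 12.23 and 11.92 in PRMT5_down and at 12.23, 12.23 and 11.71 in control. The HBA set was at 12.78, 12.51 and 12.16 in PRMT5_down and at 12.42, 12.35 and 11.63 in control. Of 16 genes of iron handling 0 were called by limma, with 3 higher and 1 lower at an unadjusted p under 0.05. Among them the transferrin receptor gene TFRC was at 0.70 (SE 0.16) and FECH, which inserts iron into heme, at 0.89 (SE 0.29).

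Lists of other cell types held at most 1 called gene each, where 3.24% of all genes were called. Of 19 megakaryocyte genes CD36 alone was called (5.26%), of 23 plasma cell genes CCND2 alone (4.35%), and of 21 granulocyte and mast cell, 16 other lymphoid, 13 monocyte and 15 epithelial and fibroblast genes 0 were called by limma. At an unadjusted p under 0.05 those last 4 lists held 4, 0, 2 and 1 genes. The eosinophil granule gene PRG2, of the granulocyte and mast cell list, was at -1.65 (SE 0.37), with 7.75, 9.61 and 8.46 in PRMT5_down and 5.68, 7.91 and 7.46 in control, and did not pass (limma adjusted p = 0.0755). The part of such cells in the results was not tested. In a bulk sample fewer cells of a type and less RNA per cell cannot be told apart.

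Cell cycle genes leaned higher in number 1, with more single genes behind the DNA synthesis list than behind the mitosis list. Of 40 S phase genes 29 were higher, with a median of 0.15, and 2 were called (5%, against 3.24% of all genes). All 40 were above background on all 6 arrays, where limma called 537 of 10215 genes, so 5% is no excess. CCNE2, the cyclin of entry into S phase, was at 8.32, 6.79 and 6.73 in PRMT5_down and at 7.65, 6.56 and 6.53 in control, a difference of 1.33 (SE 0.13, limma adjusted p = 0.0327). RRM2, the subunit of ribonucleotide reductase that limits nucleotide supply, was at 10.31, 9.14 and 9.40 in PRMT5_down and at 10.05, 9.36 and 9.33 in control, a difference of 0.87 (SE 0.13, limma adjusted p = 0.037). Both genes were highest in number 1 in each group. The polymerase clamp gene PCNA at 0.66 (SE 0.12) and the replication licensing gene CDC6 at 0.67 (SE 0.13) missed (limma adjusted p = 0.0556 and 0.0562). At an unadjusted p under 0.05 the S phase list held 12 higher and 2 lower genes.

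Of 37 mitosis genes 27 were higher, with a median of 0.19. KIF11, a motor of the spindle, was the 1 called (2.7%, against 3.24% of all genes), at 0.89 (SE 0.12). All 37 were above background on every array, where limma called 537 of 10215 genes, so 2.7% is no excess. At an unadjusted p under 0.05 the mitosis list held 2 higher and 2 lower genes. The mitotic cyclin gene CCNB1 went the other way, at 9.03, 10.72 and 9.90 in PRMT5_down and 9.48, 10.75 and 9.86 in control. Its difference was -1.05 (SE 0.34) and did not pass, and number 2 was the highest in both groups. The kinetochore genes CENPA at -0.41 (SE 0.16) and NDC80 at 0.72 (SE 0.28) were on opposite sides, neither called. Replication histone genes had 32 of 48 lower, with a median of -0.10 and 0 called by limma (5 at an unadjusted p under 0.05, all lower).

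The growth arrest list, which also holds cyclin D genes that are no arrest genes themselves, had called genes on both sides. Its 1 gene called lower was the cyclin gene CCND1. Of 29 measured, 4 were called higher and 1 lower (17.2%, against 3.24% of all genes), with a median of 0.15 on the log2 scale. GADD45A, a stress sensor that slows the cycle, was at 11.80, 10.88 and 10.97 in PRMT5_down and at 11.62, 10.85 and 10.86 in control, a difference of 0.82 (SE 0.08, limma adjusted p = 0.0327). FOXO3, a transcription factor held back by growth factor signals, differed by 0.90 (SE 0.13), and its target SESN3 by 0.71 (SE 0.12) without being above background on any array. The cyclin D genes parted. CCND2 was at 11.07, 9.78 and 10.31 in PRMT5_down and at 10.99, 9.90 and 10.08 in control, a difference of 1.01 (SE 0.17, limma adjusted p = 0.0454). CCND1 was at 6.37, 7.39 and 7.82 in PRMT5_down and at 6.66, 7.36 and 7.55 in control, a difference of -1.02 (SE 0.17, limma adjusted p = 0.0488). Among 28 p53 targets 2 were called higher and 1 lower (10.7%), GADD45A again, the proapoptotic gene PMAIP1 at 1.05 (SE 0.14) and the DNA repair gene XPC at -0.91 (SE 0.15). Of 15 glucocorticoid targets 3 were called (20%), GADD45A, DUSP1 and the transcription factor gene KLF9, which was at 9.30 and 9.30 in number 1 against 8.19 to 8.41 in the others, a difference of 1.00 (SE 0.11). That list did not shift as a whole, with 7 higher, 8 lower and a median of -0.0275. At an unadjusted p under 0.05 it held 6 higher and 2 lower genes. GADD45A and DUSP1 are counted in other lists too.

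**Figure D3:**
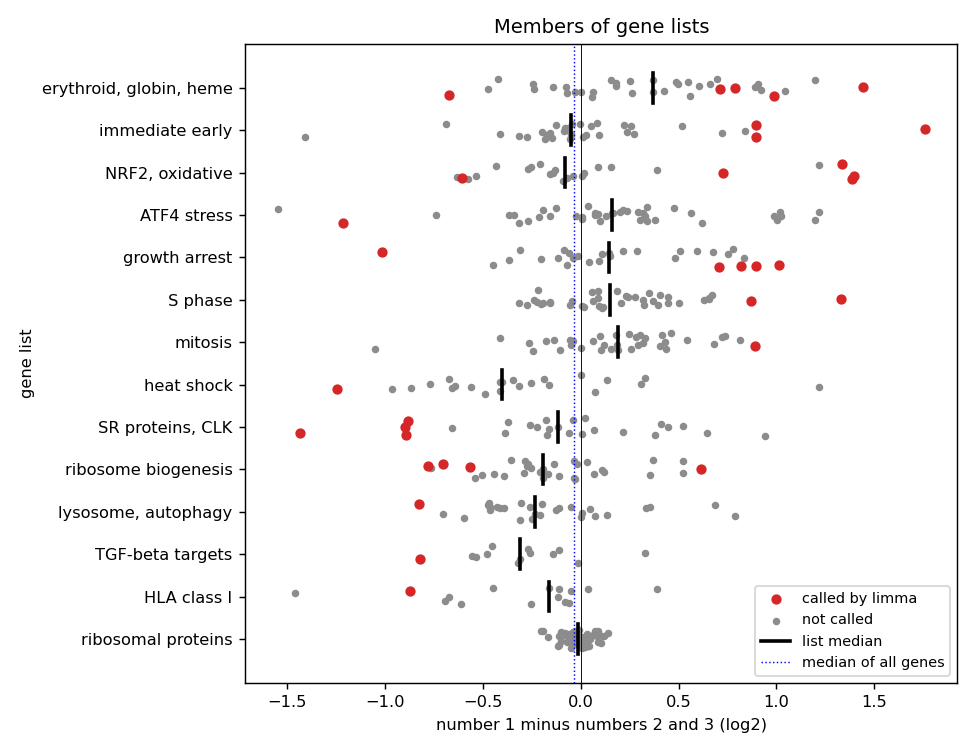
Log2 difference of number 1 from numbers 2 and 3 for the measured members of 14 gene lists, red where limma called the gene. The black bar is the list's median, from 0.37 for erythroid, globin and heme genes to -0.40 for heat shock genes, and the dotted line is the median of all genes, -0.035.

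Transcripts of 4 SR proteins, which choose splice sites and limit their own levels through splicing, were lower in number 1. Of 25 genes of SR proteins and CLK kinases, the kinases that phosphorylate them, 4 were called, all lower (16%, against 3.24% of all genes), with a list median of -0.12. SRSF2 was at 8.07, 9.75 and 10.01 in PRMT5_down and at 8.89, 9.76 and 10.14 in control, a difference of -1.43 (SE 0.22, limma adjusted p = 0.0396). SRSF7 was at 9.87, 10.83 and 10.95 in PRMT5_down and at 10.05, 10.79 and 10.80 in control, a difference of -0.88 (SE 0.10, limma adjusted p = 0.0327). SRSF3 at -0.89 (SE 0.15) and SRSF4 at -0.90 (SE 0.12) were lower by as much. For all 4 the number 1 arrays were below the other 4. The kinase gene CLK1, chosen after its values were seen, was at 9.02 and 8.66 in number 1 and 8.07 to 8.32 in the others, a difference of 0.65 (SE 0.13) that missed (limma adjusted p = 0.0603).

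Ribosome biogenesis genes leaned lower, and ribosomal protein genes hardly moved. Of 34 biogenesis genes 25 were lower, with a median of -0.19, and limma called 3 lower and 1 higher (11.8%, against 3.24% of all genes). RRP9, a protein of the U3 particle that processes ribosomal RNA, was at 6.92 and 6.98 in number 1 and at 7.59 to 7.74 in the others, a difference of -0.70 (SE 0.09). PPAN at -0.78 (SE 0.13) and RRS1 at -0.57 (SE 0.09), both assembly factors of the large subunit, were also lower. NOP58, a core protein of box C/D small nucleolar RNA particles, was higher, at 10.79 and 10.66 against 10.03 to 10.15, a difference of 0.61 (SE 0.08). The small nucleolar RNA host transcripts SNHG1 and SNHG8 were the 2 called of 8 nuclear and host RNAs (25%). SNHG1 was at 10.24, 8.84 and 9.02 in PRMT5_down and at 10.21, 8.95 and 8.94 in control, a difference of 1.29 (SE 0.09, limma adjusted p = 0.0327), and SNHG8 differed by 0.64 (SE 0.10). Of 58 cytosolic ribosomal protein genes limma called 0, and 0 had an unadjusted p under 0.05, with a median of -0.016. Of 51 respiratory chain genes limma also called 0, with 4 higher and 3 lower at an unadjusted p under 0.05.

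Lysosome and antigen presentation genes held 1 called gene each. A majority of lower genes was also seen over all genes tested, dim ones included, of which 41.9% were higher in number 1. Of 29 lysosome and autophagy genes 20 were lower, with a median of -0.24, and GRN alone was called (3.45%, close to the 3.24% of all genes). All 29 were above background on all 6 arrays, where limma called 537 of 10215 genes. GRN, which encodes the lysosomal protein progranulin, was at 8.65, 9.45 and 9.45 in PRMT5_down and at 8.55, 9.39 and 9.41 in control, a difference of -0.83 (SE 0.08, limma adjusted p = 0.0327). The cathepsin gene CTSA at -0.70 (SE 0.12) missed narrowly (limma adjusted p = 0.0501), and the proton pump gene ATP6V1A lay on the other side at 0.79 (SE 0.17) without passing. Of 15 class I genes 13 were lower, with a median of -0.16, and TAPBP, the chaperone that loads peptides, was called (6.67%) at -0.88 (SE 0.10). HLA-E at -0.67 (SE 0.12) missed (limma adjusted p = 0.0523).

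Signalling targets outside stress held 1 or 2 called genes in each list, set here beside the 3.24% called over all genes. Among 42 interferon genes ISG15 at -0.55 (SE 0.09) and the antiviral membrane protein gene IFITM3 at -0.84 (SE 0.14) were called lower (4.76%), with 19 of the 42 above background on no array. Of 13 TGF-beta targets 12 were lower, with a median of -0.31, and SMAD6, an inhibitor of the pathway, was called (7.69%) at -0.82 (SE 0.14), with a further probe set at -0.15. Of 26 NF-kappaB targets RELB alone was called (3.85%), at -0.88 (SE 0.15). Of 24 actin and SRF genes, ACTG1, the gamma actin gene, was called lower at -0.51 (SE 0.08) and the tubulin gene TUBA1A higher at 0.55 (SE 0.09), or 8.33%.

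Metabolic lists held 0 to 2 called genes each, again beside 3.24% over all genes. The hypoxia list had 1 gene called on each side of 30 (6.67%), the ER oxidase gene ERO1A at 0.72 (SE 0.11) and the collagen hydroxylase gene P4HA2 at -0.87 (SE 0.14). Of 18 glycolysis genes limma called 0, with 2 higher and 2 lower at an unadjusted p under 0.05. In the fatty acid list ME1 was called higher and the lipogenic regulator THRSP lower, at -0.94 (SE 0.15) with number 1 under background, or 2 of 15 (13.3%), and in the cholesterol list NSDHL was called lower at -0.62 (SE 0.09), 1 of 21 (4.76%). SREBF1, the master regulator of lipid synthesis, was at -0.69 (SE 0.13) and missed (limma adjusted p = 0.0568). Of 12 metallothionein and zinc genes 0 were called by limma, with 1 higher and 2 lower at an unadjusted p under 0.05. MT2A had the widest difference of the named ones, at 8.43, 10.34 and 9.79 in PRMT5_down and 8.54, 10.13 and 9.42 in control, -1.44 (SE 0.26), and missed (limma adjusted p = 0.0529). A further MT2A probe set above background on all 6 arrays differed by -0.14.

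Genes called higher in number 1 spanned more of the genome than genes called lower. These features were looked at after the values were seen, and genes are not independent replicates, so no test is given. The median span from start to end of the RefSeq gene was 46.7 kb for genes called higher and 14.4 kb for genes called lower, beside 25.8 kb for all genes tested and 27.2 kb for genes above background on all 6 arrays. The median signal was close in both sets, 7.80 and 7.97. Over 10211 genes above background on all arrays, split by span into 5 groups of equal size, the median difference was -0.13, -0.107, -0.0275, 0.055 and 0.11 from the shortest to the longest. The share called higher went from 1.17% in the shortest group to 4.8% in the longest, and the share called lower from 3.82% to 0.588%. The Spearman rho of span with the difference was 0.276 over these genes. That of promoter GC content was -0.0907. Span, promoter composition and chromosome are linked in the genome and were not separated here.

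The called genes were also unevenly placed. On chromosomes 16, 17, 19 and 22, known for dense, GC-rich genes, 20 of 2636 genes were called higher (0.759%) and 75 lower (2.85%). Over all genes tested these shares were 1.83% and 1.41%. Of the 14425 genes with an entry in the promoter table, 291 were called higher and 209 lower. On chromosomes 4, 5, 13 and 18, which are poorer in genes, 63 of 1822 were called higher (3.46%) and 11 lower (0.604%). Both sets were picked after the values were seen. Chromosomes were read from the promoter table, so genes without an entry are not counted, and chromosome 8 was not analysed here. The median GC content of the 300 promoter bases was 62% for genes called higher, 67% for genes called lower, 63% for all and 65.3% for genes above background on all 6 arrays. A promoter was in the RefSeq table for 87.7%, 81.6%, 79.6% and 83.1% of these sets. The letters GGGCGG, a pattern that SP1 is known to bind, were in 75.6% of promoters of genes called lower, 64.3% of those called higher and 59.7% of all. CGGAAG, which ETS factors are known to bind, was in 40.2%, 30.2% and 26.2% in the same order. AGATAA, which GATA factors are known to bind, was in 0 of 209 promoters of genes called lower, in 7.9% of those called higher and in 7.57% of all. These are patterns with wide contrasts among the 14 searched. Others were nearly even: in the same order CCAAT was in 36.8%, 37.5% and 36.4%, and TTTCC in 58.9%, 59.1% and 59.6%. The part of promoter GC content in these shares was not tested, nor was any binding.

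**Figure D4:**
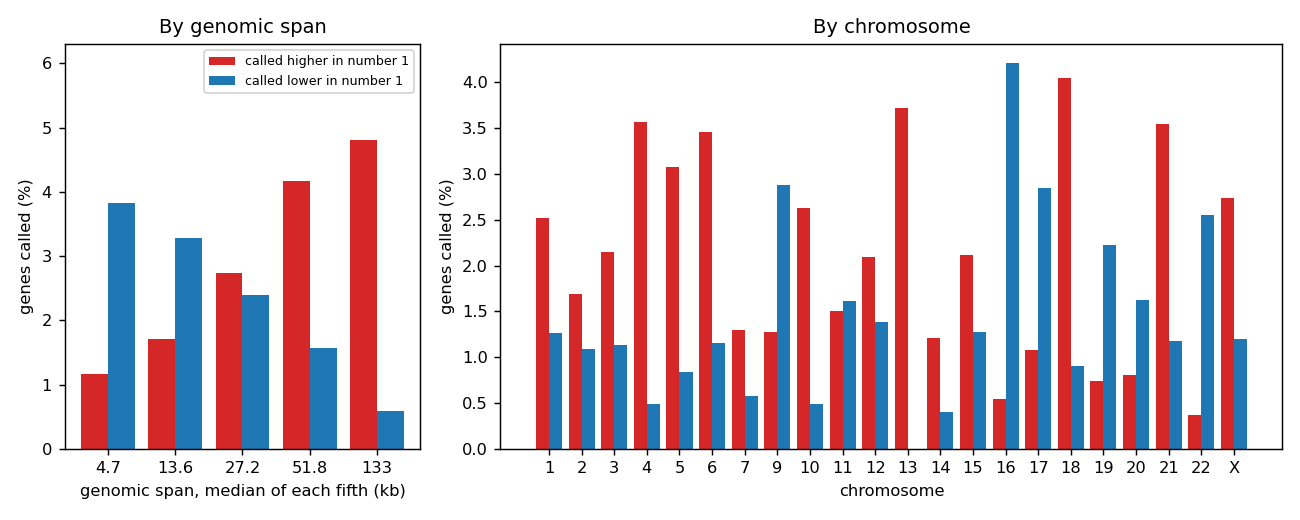
Percent of genes called higher (red) and lower (blue) in number 1, by group of genomic span among genes above background on all 6 arrays (x axis, median span in kb) and by chromosome among genes with a RefSeq promoter. The red bars grow from 1.17% to 4.8% with span while the blue bars shrink from 3.82% to 0.588%.

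Control transcripts on the arrays differed with the number as well. The 24 probe sets for the bacterial poly-A transcripts, which labelling kits add to RNA before amplification, had means of 6.73, 7.0 and 7.15 in PRMT5_down replicates 1, 2 and 3 and 6.72, 6.94 and 7.21 in control. All 24 were lower in number 1, and 23 lay below the range of the other 4 arrays, with a median difference of -0.35. The 18 hybridisation controls, added later, had a median difference of -0.06, with 15 lower in number 1 and 0 below that range. The 3′ minus 5′ signal of beta actin, which grows as RNA is shortened, was 1.22, 1.02 and 0.84 in PRMT5_down and 1.09, 1.02 and 0.73 in control, or 0.25 higher in number 1. For GAPDH it was 0.12, 0.06 and 0.11 in PRMT5_down and 0.14, 0.10 and 0.10 in control. The part of these values in the gene differences was not tested, and the labels do not say in what amount, or whether, the controls were added.

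**Figure D5:**
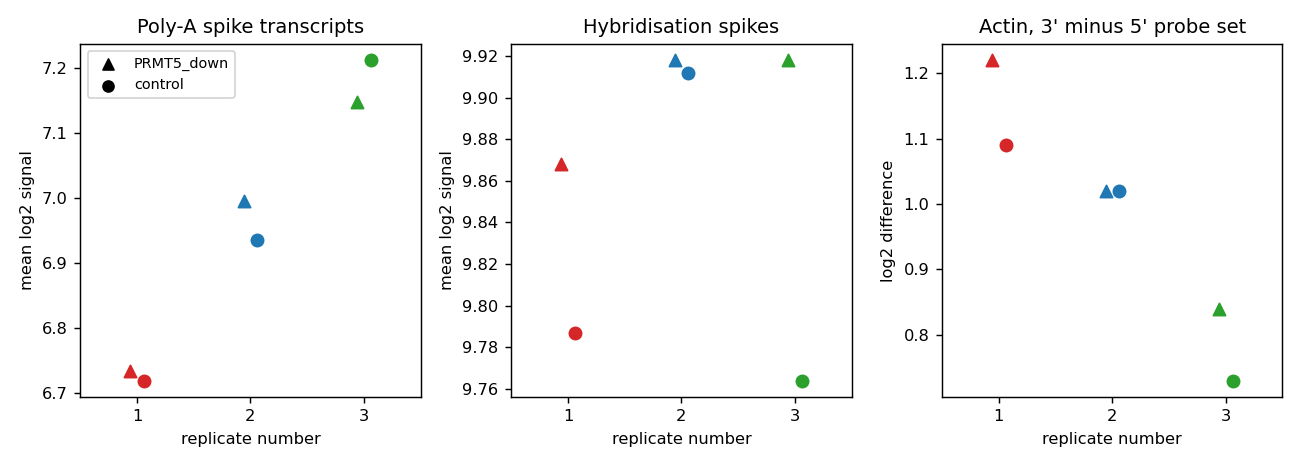
Mean log2 signal of 24 poly-A control probe sets, mean log2 signal of 18 hybridisation control probe sets, and 3′ minus 5′ log2 signal of beta actin on each array by replicate number, with axes that do not start at 0. Number 1 has the lowest poly-A means, 6.73 and 6.72, and the highest actin values, 1.22 and 1.09.

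Number 1 was not the sole number to stand apart. Number 3 set against numbers 1 and 2 in the same way gave 346 called genes (1.91%), 178 higher (0.982%) and 168 lower (0.927%), with 4107 at an unadjusted p under 0.05, and 35.3% of genes had both number 3 arrays outside the range of the other 4. Number 2 against numbers 1 and 3 gave 0 called genes (0%) in limma, with 1877 at an unadjusted p under 0.05. Even so, 21.6% of genes had both number 2 arrays outside the range of the other 4. With the number as a factor of 3 levels, limma called 3285 genes between numbers 1 and 2 (18.1%, with 9.11% higher and 9.01% lower in number 1), 5318 between numbers 1 and 3 (29.3%) and 3465 between numbers 2 and 3 (19.1%, with 10.1% higher in number 2). The 3-level fit counts the 2 arrays of a number as replicates of it, although arrays sharing a number deviated together. Its counts therefore do not measure how unusual a number is. With the number as a random block, limma called 0 genes between number 1 and numbers 2 and 3. All these comparisons share arrays, so their gene lists are not set against each other. Within PRMT5_down the median absolute difference between arrays was 0.18 for numbers 1 and 2, 0.21 for 1 and 3 and 0.15 for 2 and 3. Within control it was 0.15, 0.21 and 0.20 in the same order. Between the treatments within a number it was 0.13, 0.08 and 0.14 for numbers 1, 2 and 3, so within each number the array of the other treatment was nearer than any array of the same treatment.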

How the data were processed

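RNA of 6 samples was hybridised to 1 Affymetrix array each. The authors deposited log2 signals of probe sets. RMA is named in the submitters' processing notes, and neither its version nor a chip definition is given in the sources used here. Since RMA evens out array distributions, a shift common to most genes cannot be seen. The values, with 2 decimals, entered the fits unchanged. The 49372 probe sets comprised 79 controls, 44988 with 1 symbol, 1832 with several and 2473 unnamed here, and symbols of 44961 were updated through gene identifiers. Each of 18132 genes was represented by its single-symbol probe set with the highest mean over 6 arrays, with no filter on dim genes.

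Number 1 was compared with treatment as covariate by lmFit and eBayes of limma 3.58.1 (R 4.3.3), and genes were called at a Benjamini-Hochberg adjusted p under 0.05. Residual and prior degrees of freedom were 3 and 2.43. The 38 gene lists, the members and the tests were chosen with earlier results of these data known. Named are the 12 called genes of largest difference in each direction whose number 1 arrays lay both outside the other 4 and whose brighter side was above background, up to 4 genes of each list with the smallest p, all called list members, and PRMT5 with its partners. Others are said to be chosen after their values were seen.

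Arrays sharing a number deviated together from their group means, with r = 0.821, 0.724 and 0.788 for numbers 1, 2 and 3, above a minimum of 0.1. The numbers were therefore taken to pair arrays, on the data alone and not on the labels. On simulated data for number 1 against numbers 2 and 3 with 18132 genes, limma recovered 4% of genes given a difference of 0.5 log2 units, 66% of those given 1, 82% of those given 1.5 and 94% of those given 2, with 5 false calls among 128. The simulated noise was independent between arrays, whereas the real arrays that share a number deviated together. These rates and the count of false calls do not cover that dependence, so they say nothing on how it affects the 588 calls. Promoters came from a RefSeq table (GRCh38.p14) with 14425 tested genes matched by symbol. The 14 patterns searched were GAANNTTC with and without a further GAA unit, TGACNTCA with its special case TGACGTCA, the ATF4 pattern TGATGNAA, the NRF2 pattern TGANNNNGC, the box CCAAT and GATTGGC (whose other strand overlaps CCAAT), the TATA pattern TATAAA, the GATA pattern AGATAA, the E-box CACGTG, the SP1 pattern GGGCGG, the ETS pattern CGGAAG and the short pattern TTTCC. Alternatives were other probe set rules, filters, normalization, variance models, array weights, replicate blocks and left-out arrays.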

Additional observations from a re-analysis of the deposited data

How the results depend on the processing

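The 588 genes called between number 1 and numbers 2 and 3 became 59 with trend and robust variances, all of them among the 588, 3530 with array weights, 1265 with no treatment covariate and 138 when a 2-fold difference was also required. With the number as a replicate block, 4598 were called as a fixed factor, against 0 as a random block with a consensus correlation of 0.439 (limma smallest adjusted p = 0.0918), and both fits take the pairing of arrays by number from the data. Leaving out 1 array gave 0 to 934 genes, with 934 without control replicate 2, and leaving out both arrays of number 2 or 3 gave 2746 and 1009. In these and the other settings all 588 kept their sign where tested, except with the most variable probe set, where 585 did. The 3733 genes at an unadjusted p under 0.05 became 6119 with array weights and 6388 with the fixed replicate block, and 1449 to 6213 with arrays left out (1449 without PRMT5_down replicate 1, 1956 without control replicate 1, 4658 without control replicate 2, 6213 without both arrays of number 2). PRMT5, at -0.64, was called with array weights (-0.72, limma adjusted p = 0.0165) and with the fixed replicate block (-0.64, limma adjusted p = 0.00788), and in no other setting; its value ran from -0.88 to -0.395 with arrays left out. Number 2 against the others had 4 called genes with trend and robust variances and 2 after quantile normalization, against 0. The 346 genes of number 3 became 38 with the dimmest 50% left out and 13 with trend and robust variances. Of 84 genes followed, 3 turned their sign, none of them called. WDR77 was at 0.046 with array weights and ran from -0.33 to 0.30 with arrays left out, including 0.10, 0.035, 0.14 and 0.30. ALAS2 was at 0.005 without PRMT5_down replicate 1, within -0.16 to 0.005, and RIOK1 at -0.03 without both arrays of number 3, within -0.03 to 0.37. The cause of these changes was not tested. The settings for number 1 against 2, 1 against 3 and the treatment dependence were chosen after seeing the data and kept those counts within 1.5 times.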

Other observations

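Zinc finger genes with symbols starting in ZNF, ZFP, ZSCAN or ZKSCAN, many of them DNA-binding repressors of the KRAB family, were set apart after their values were seen. Of 539 measured, 310 were higher in number 1, with a median difference of 0.06 beside -0.035 over all genes. limma called 14 of them higher (2.6%, beside 1.83% of all genes) and 3 lower (0.557%, beside 1.41%). These shares are given as a description, with no test. Of 4305 probe sets with several symbols or none, limma called 38 higher and 20 lower in number 1, with 745 at an unadjusted p under 0.05.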
